A study of Cervus nippon with 40 samples.

Results

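The miR-30 family was followed through 10 organs and 4 development stages of male Sika Deer (Cervus nippon, Shuangyang breed). Its members were taken by name, as every listed miRNA called bta-miR-30 with a letter from a to f and any arm suffix. Of the 500 names listed in the 40 libraries, 6 met this rule: bta-miR-30a-5p, bta-miR-30b-5p, bta-miR-30c, bta-miR-30d, bta-miR-30e-5p and bta-miR-30f. Across the 40 libraries bta-miR-30c had 1023189 reads and bta-miR-30b-5p had 2646. The prefix bta marks names taken from cattle and is left out below.

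The organs were adrenal, antler, brain, heart, kidney, liver, lung, skeletal muscle, spleen and testes, and the deer were 1 year old (juvenile), 3 (adolescence), 5 (adult) or 10 years old (aged). Every organ and stage is represented by a single library, made from the pooled RNA of 3 deer. According to the methods the same 3 animals supplied all organs of a stage, and other animals supplied the next stage. An organ was therefore replicated only across stages, and a stage difference is a difference between 4 groups of 3 deer. Variation among single deer, and among repeat libraries of a pool, cannot be read from these data. In whole tissue, fewer cells of a type and less of a miRNA per cell cannot be told apart.

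MicroRNAs are short RNAs that guide Argonaute proteins to messenger RNAs, mainly through the seed, a short stretch near the 5′ end, and so lower the output of those messages. Members of the miR-30 family share their seed, are made from several genes in mammals, and are known as abundant miRNAs of kidney epithelium and of podocytes, the filtering cells of the glomerulus, as well as of heart. In human and mouse, miR-30d is made from the same primary transcript as miR-30b, and miR-30e from the same transcript as a copy of miR-30c. Mature sequences were not used here, so the members are described by name alone, and it was not tested how the authors' counting divided reads that match more than 1 name, which bears most on miR-30c and miR-30f.

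The libraries held between 41866 miRNA reads (aged testes) and 7759033 (in skeletal muscle), with a median of 744715. Levels are given in RPM, the reads of a miRNA per 1000000 miRNA reads of its library, without division by length. A single miRNA, the muscle miRNA miR-1, took 91.1% to 92.9% of the reads in skeletal muscle and 15.1% to 81.5% in heart, against at most 5.21% elsewhere, so RPM of all other miRNAs is pressed down in those organs. For tests the values were scaled between libraries with TMM, which centres most miRNAs, and a miRNA was called different at an adjusted p below 0.01 and a log2 difference beyond 1. Organ labels were checked with lists of known organ miRNAs. The summed RPM of the muscle list was highest in skeletal muscle and heart, that of the brain list in brain (though miR-124b, miR-9 and miR-219 were not listed under those names) and that of the kidney list in kidney, at 64677 to 272692. Liver overlapped kidney on that list at 147612 to 187242, and in both organs nearly all of the sum was miR-192. Of the liver list only miR-192 was listed, with a median of 158044 RPM in kidney and 157964 in liver. These sums therefore do not tell kidney from liver. The liver miRNA miR-122 was not listed in any library.

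The family was dominated by miR-30c. Over the 40 libraries it had 1023189 of the 1379795 family reads (74.2%), followed by miR-30f with 347786 reads (25.2%), miR-30a-5p with 6050 (0.438%) and miR-30b-5p with 2646 (0.192%). The rarest were miR-30e-5p, with 87 reads in 29 libraries and at most 10 in any of them, and miR-30d, with 37 reads in 20 libraries and at most 5. These last members did not reach 10 reads in 4 libraries and were not tested. The other 4 passed in many organs, as miR-30c and miR-30f were listed in all 40 libraries and miR-30a-5p and miR-30b-5p each had 10 reads or more in 34.

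The order within a library was nearly fixed. The leading member was miR-30c in 37 libraries and miR-30f in 3, namely adolescence brain, adult kidney and juvenile lung. The next place was held by whichever of these did not lead. Below them came miR-30a-5p in 34 libraries and miR-30b-5p in 6, counting aged brain, where both had 41 reads. In juvenile antler, adolescence antler and aged testes miR-30b-5p was ahead by 4 reads against 0, 3 against 2 and 2 against 1. As a share of family reads, miR-30c ran from 46.6% to 96.1% with a median of 81.3%, and miR-30f from 1.98% to 53.0% with a median of 18.5%. The family as a whole reached 207782 RPM in adult kidney and was lowest at 1084 RPM in juvenile skeletal muscle.

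Levels of miR-30c, the member with the most reads, ranged from 1013 RPM in juvenile skeletal muscle to 109632 RPM in adolescence kidney, with a median of 33341. Levels of miR-30f ranged from 42.0 RPM in aged skeletal muscle to 110051 RPM in adult kidney, with a median of 8029. The span of miR-30f between organs was thus far wider than that of miR-30c. For miR-30a-5p, known for acting on autophagy genes, the median was 138 RPM and the highest value 1578 RPM, in juvenile kidney. For miR-30b-5p the median was 43.8 RPM and the highest value 1490 RPM, in adolescence kidney.

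**Figure D1:**
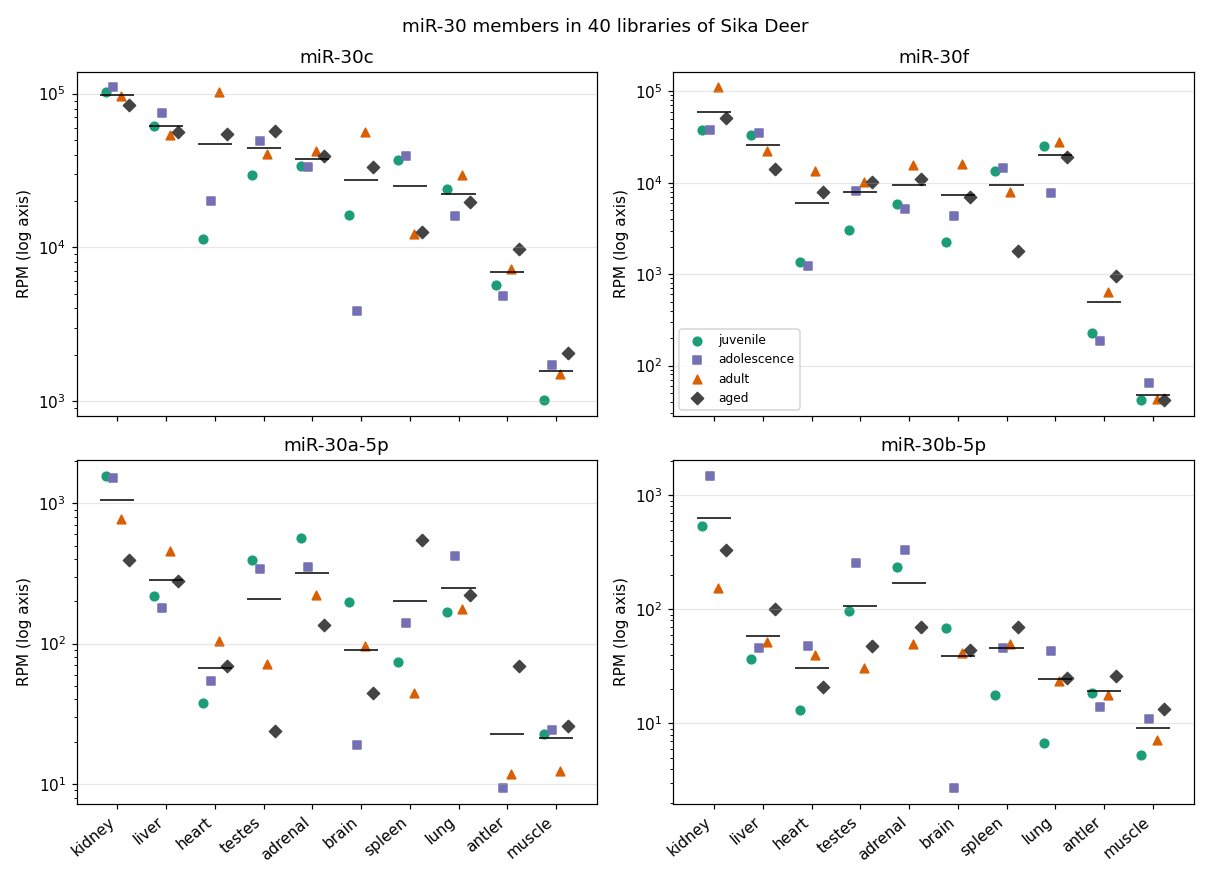
RPM (log axis) of miR-30c, miR-30f, miR-30a-5p and miR-30b-5p in each library, with organs ordered by mean miR-30c, a symbol for each stage and a line at the mean of the 4 libraries. Kidney has the highest mean in all 4 panels, at 98143 RPM for miR-30c and 59352 RPM for miR-30f, and the 0 of miR-30a-5p in juvenile antler is not drawn.

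Kidney held the highest mean RPM of each of the 6 members. In the juvenile, adolescence, adult and aged kidney, miR-30c stood at 101763, 109632, 96775 and 84402 RPM. These libraries differed by 1.30 times at most, and 1 of the other 36 libraries, adult heart at 102527 RPM, was above the lowest of them. On the TMM scale 6 of the 36 were, and adolescence heart at a log2 value of 17.02 exceeded the highest kidney library at 15.62. Among all known miRNAs of a library, miR-30c ranked between 2 and 4 in kidney.

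The kidney libraries held miR-30f at 38131, 37842, 110051 and 51383 RPM in the same order of stages. The adult library was the highest by far, and none of the other 36 libraries reached the lowest kidney value, the nearest being adolescence liver at 35203 RPM. Of all 124 miRNAs tested, 2.42% had all kidney libraries above all others in RPM. On the TMM scale this held for 0 of the 124, and 5 of the other 36 libraries exceeded the lowest kidney library for miR-30f.

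Among the minor members, miR-30a-5p was at 1578, 1515, 774 and 392 RPM in kidney. The first 3 of these lay above the 36 libraries of other organs, whose highest was juvenile adrenal at 567 RPM, but on the TMM scale 10 of the 36 exceeded the lowest kidney library. There skeletal muscle was above kidney in adolescence (9.53 against 9.31) and adult deer (8.73 against 8.34). In aged deer spleen was above kidney in RPM (546 against 392). On the TMM scale both spleen (8.57) and skeletal muscle (8.44) were above the aged kidney (7.74). For miR-30b-5p the kidney values were 543, 1490, 155 and 333 RPM. The adolescence kidney stood out here, and the lowest kidney library was exceeded by 3 of the other 36, and by 8 on the TMM scale.

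Read numbers of miR-30e-5p and miR-30d were small in kidney too. For miR-30e-5p the kidney libraries had 4, 10, 4 and 9 reads, which together make 14.3 RPM (exact 95% interval 9.45 to 20.9). Adrenal, with 11 reads, had 3.65 RPM (1.82 to 6.53), an interval that does not reach that of kidney, while testes, the next organ by mean RPM, had 4 reads and 5.39 RPM (1.47 to 13.8), which overlaps kidney. For miR-30d the kidney libraries had 2, 1, 5 and 1 reads, or 4.78 RPM together (2.19 to 9.08). This interval overlaps those of all other organs but lung (up to 1.05) and skeletal muscle (up to 0.217). Among the overlapping organs were liver at 2.69 RPM (0.874 to 6.28), spleen at 1.31 (0.356 to 3.34) and testes at 1.35 (0.0341 to 7.51). The 4 lung libraries had no read of miR-30d, where 3 reads would be 2.87 to 4.61 RPM. These intervals cover counting error only.

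Set against the mean of the other 9 organs in limma on TMM-scaled log2 values, kidney was higher in miR-30f by 2.71 (standard error 0.44, adjusted p 1.18e-05) and in miR-30b-5p by 2.50 (0.62, adjusted p 0.00228), and both were called. For miR-30a-5p the difference was 2.21 (0.68) with an adjusted p of 0.0149, and for miR-30c it was 1.16 (0.39) with an adjusted p of 0.0232, so that neither was called. Thus 2 of the 4 tested members were called higher in kidney, where 9.68% of all 124 tested miRNAs were. By size of the difference, miR-30f, miR-30b-5p, miR-30a-5p and miR-30c took places 8, 9, 10 and 21 among the 124. The median difference of the 4 members was 2.35, against 0.01 for all tested miRNAs.

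The call of miR-30f was kept under all 16 alternative settings and omissions run for it, with differences from 2.50 to 3.94. That of miR-30b-5p was lost without the juvenile kidney library (2.29, limma adjusted p 0.0126) and without the adolescence kidney library (2.14, limma adjusted p 0.0382). On total miRNA reads in place of TMM all 4 members were called, at 3.44 for miR-30a-5p, 3.71 for miR-30b-5p, 2.38 for miR-30c and 3.94 for miR-30f, with the median of all miRNAs in kidney moved by 1.06.

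Taken pair by pair against each of the other 9 organs, kidney was called higher in 6 pairs for miR-30f, 4 for miR-30b-5p, 2 for miR-30a-5p and 1 for miR-30c, and lower in none. Over all tested miRNAs, 10.7% of such pairs were called higher in kidney. The pairs not called for miR-30f were those with lung (0.46, standard error 0.59), liver (1.14, 0.59) and heart (1.83, 0.59). Lung and liver were also next below kidney in the order of miR-30f, and no neighbours in that order were called different.

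Other miRNAs of kidney and epithelium were compared in the same way. Of a list of 13 such names, 10 were listed and 4 were tested, and all 4 of these were called higher in kidney. The 3 largest were miR-196b at 7.39 (limma adjusted p 1.52e-12), miR-196a at 6.08 (2.56e-11) and miR-192 at 4.69 (8.53e-08). Liver was also high in miR-192, at 147600 to 187160 RPM. That lay above adult and aged kidney (63924 and 67465 RPM) and below juvenile and adolescence kidney (270874 and 248624 RPM). The median of the 4 was 5.39, above that of the miR-30 members. The fourth was miR-215 at 3.34, and of the remaining names 3 were not listed and 6 did not reach the minimum of reads. These 6 had 1 to 144 reads over the 40 libraries. Because kidney has 4 libraries, a name high in kidney alone could pass the minimum, and a name rare everywhere could not. The 4 calls and their median are therefore shaped by the minimum and give no fair measure for the miR-30 members.

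Differences between organs as a whole were called for all 4 members by the limma F test over 10 organs, with adjusted p between 1.83e-10 for miR-30f and 7.09e-04 for miR-30b-5p. This was also true of 75.8% of all tested miRNAs. Of the 45 organ pairs, 22 were called for miR-30f, 10 each for miR-30a-5p and miR-30b-5p and 9 for miR-30c, where 23.1% of all pairs and miRNAs were called.

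Antler, a bone organ that regrows each year, stood at the other end from kidney. Its juvenile, adolescence, adult and aged libraries held 228, 187, 636 and 946 RPM of miR-30f and 5691, 4800, 7264 and 9757 RPM of miR-30c. All 4 lay below every library of the organs other than skeletal muscle for miR-30f. For miR-30a-5p antler had 0, 9.34, 11.9 and 69.2 RPM, where 3 reads in the juvenile library would be 14.0 RPM. Compared with the mean of the other 9 organs, antler was lower, with log2 differences of -4.03 in miR-30f (standard error 0.44, limma adjusted p 1.44e-09), -3.87 in miR-30a-5p (0.68, 1.41e-05) and -2.05 in miR-30c (0.39, 4.00e-05). Among all 124 miRNAs 22.6% were called lower in antler. For miR-30b-5p, at 14.0 to 26.3 RPM in antler, the difference of -1.42 was not called.

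In lung, miR-30f was at 25400, 7659, 27865 and 19151 RPM over the 4 stages. Only the adolescence library was low, and the organ exceeded the mean of the others by 2.21 (standard error 0.44, limma adjusted p 2.28e-04), a call made for 6.45% of all miRNAs. The call was lost without the juvenile libraries (1.79, limma adjusted p 0.0251). Liver was similar in RPM, with miR-30f at 32940, 35203, 22082 and 14113, and there the difference of 1.44 (0.44, limma adjusted p 0.0110) was not called, where 9.68% of all miRNAs were called higher. It was called in 6 of 12 alternatives, among them edgeR (1.61), DESeq2 (1.43) and total reads (2.69), with values from 1.12 to 2.69 over the 12.

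Heart was marked by miR-30c, with 11246, 20102, 102527 and 54343 RPM over the stages. In RPM the younger libraries were far below the older, and the share of miR-1 varied most in this organ. On the TMM scale they overlapped, with log2 values of 14.66, 17.02, 16.49 and 15.71, the adolescence library being the highest. TMM scaling gave heart the highest mean of miR-30c, 1.71 above the other organs (standard error 0.39, limma adjusted p 5.26e-04), where 12.1% of all miRNAs were called higher. On total reads the difference was 0.67 (limma adjusted p 0.164) and not called. With miR-1 left out before scaling it was 2.02 (limma adjusted p 1.51e-05), and total reads was the only one of the 12 alternatives that lost the call.

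Skeletal muscle had the lowest mean RPM of miR-30c, miR-30f, miR-30a-5p and miR-30b-5p. The libraries held 1013, 1723, 1494 and 2037 RPM of miR-30c and only 42.4, 64.6, 43.1 and 42.0 RPM of miR-30f. After TMM scaling, miR-30f was lower than in the other organs, at -2.35 (standard error 0.44, limma adjusted p 4.43e-05), a direction it kept on total reads, while 12.9% of all miRNAs were called lower. In contrast, miR-30a-5p and miR-30b-5p were called higher after TMM, by 2.31 (adjusted p 0.00538) and 2.36 (adjusted p 0.00220), as were 24.2% of all miRNAs, and both reversed on total reads, to -2.59 and -2.45. The median of all miRNAs in muscle moved by -3.60 between these scalings. These calls were also lost when the juvenile libraries were left out, at 1.57 (limma adjusted p 0.0324) and 1.87 (limma adjusted p 0.0140). No direction against other organs can therefore be given for them. The same holds for miR-30c, which was not called in muscle after TMM. Muscle took place 3 of the 10 organs by its mean log2 value (15.05) but place 10 by its mean RPM (1567).

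Adrenal, brain, spleen and testes had no member called in either direction, where 13.7%, 40.3%, 4.84% and 17.7% of all miRNAs were called. Their miR-30c values overlapped widely, at 33466 to 42582 RPM in adrenal, 3824 to 56106 in brain, 12152 to 39271 in spleen and 29395 to 56991 in testes. Brain was the most uneven, since its adolescence library held 1409 reads of miR-30c at 3824 RPM while adult brain was at 56106 RPM.

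**Figure D2:**
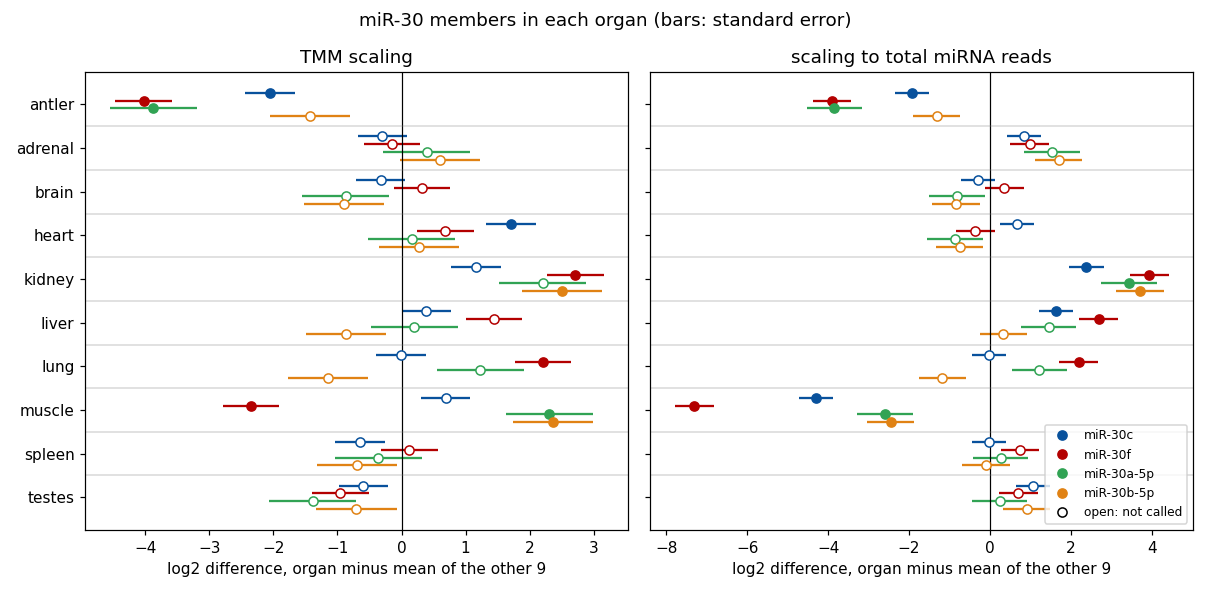
Log2 difference of each organ from the mean of the other 9 for 4 members, with bars of 1 standard error, after TMM scaling (left) and on total miRNA reads (right); filled points were called. Kidney lies right of 0 and antler left of 0 in both panels. Of the members called in muscle after TMM, miR-30a-5p and miR-30b-5p change sides, from 2.31 and 2.36 to -2.59 and -2.45.

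The ratio of miR-30f to miR-30c within a library does not depend on any scaling. In skeletal muscle it was 0.0418, 0.0375, 0.0288 and 0.0206 from juvenile to aged, and antler stood next at 0.0389 to 0.0969. Heart was at 0.0614 to 0.147, testes at 0.104 to 0.248 and adrenal at 0.153 to 0.366. The upper end was formed by liver at 0.251 to 0.531, kidney at 0.345 to 1.14 and lung at 0.477 to 1.06. The lowest kidney or lung library thus exceeded the highest library of muscle, antler, heart or testes. Brain and spleen spread over much of the range, at 0.137 to 1.13 and 0.144 to 0.650.

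**Figure D3:**
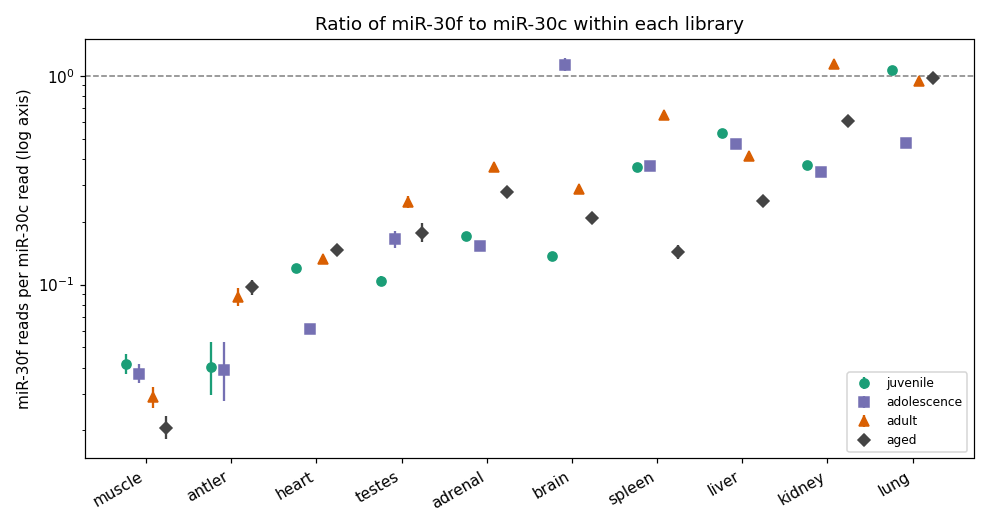
Reads of miR-30f per read of miR-30c (log axis) in each library, with organs ordered by their median, a symbol for each stage and bars for the exact 95% interval of counting; the dashed line marks equal reads. Muscle is lowest at 0.0206 to 0.0418, lung and kidney reach about equal reads, and the adolescence brain library at 1.13 stands apart from the other brain libraries.

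The minor members also differed in proportion. Per read of miR-30c, the median of miR-30a-5p was highest in skeletal muscle (0.0134) and kidney (0.0109) and lowest in antler (0.00179) and heart (0.00198). For miR-30b-5p the highest medians were again in skeletal muscle (0.00580) and kidney (0.00464). Low miR-30f against miR-30c in muscle thus went with high miR-30a-5p and miR-30b-5p against miR-30c, whereas in kidney all 3 were high.

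Over the 10 organ means on the TMM scale, the members were alike to unequal degrees. Spearman's rho was 0.733 between miR-30a-5p and miR-30c, 0.636 between miR-30a-5p and miR-30b-5p, 0.60 between miR-30b-5p and miR-30c and 0.576 between miR-30f and miR-30c, but 0.127 between miR-30f and miR-30b-5p. The non-members most like miR-30f were miR-490 (0.782) and miR-1307 (0.721). Those most like miR-30a-5p were miR-3600 and miR-22-3p (0.770 each), whose reads were equal in 38 of 40 libraries, so that they count as 1 pattern. For miR-30c they were miR-22-5p (0.721) and miR-3600 (0.697), and for miR-30b-5p miR-664b (0.709) and miR-193b (0.648). All these values come from 10 points that share libraries, deer and scaling.

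Over the stages no member was called. In the limma F test over 4 stages the adjusted p was 0.188 for miR-30f, 0.466 for miR-30b-5p, 0.772 for miR-30a-5p and 0.794 for miR-30c, with 0 of the 4 at an unadjusted p below 0.05, where 4.84% of all 124 miRNAs were called. The tests of edgeR and DESeq2 on recovered reads also called 0 of the 4. Organs are not independent here, because a stage is represented by 3 animals in all of them, and the p-values do not allow for that.

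The median of miR-30f over the 10 organs was 4421 RPM in juvenile, 6397 in adolescence, 14558 in adult and 9031 in aged deer. For miR-30c the medians were 26675, 26784, 41653 and 36286 RPM. Both were highest in the adult stage, within a spread between organs far wider than these steps. Adult and aged against juvenile and adolescence deer gave log2 differences of 0.48 for miR-30f (standard error 0.26, limma adjusted p 0.183), 0.18 for miR-30c, -0.40 for miR-30a-5p and -0.42 for miR-30b-5p. None was called, where 8.06% of all miRNAs were, and aged minus juvenile lay between -0.15 and 0.29 with 0 called, where 5.65% of all miRNAs were.

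In kidney the levels of miR-30c changed least, and the adult level of miR-30f was 2.91 times that of adolescence and the aged level 0.467 of the adult. The older kidneys lay above the younger in miR-30f and below them in miR-30a-5p, miR-30b-5p and miR-30c. Per read of miR-30c, they were at 0.609 and 1.14 against 0.345 and 0.375 for miR-30f. For miR-30a-5p they were at 0.00465 and 0.00800 against 0.0138 and 0.0155, and for miR-30b-5p at 0.00160 and 0.00394 against 0.00534 and 0.0136. Such separation of older and younger kidneys, in either direction on the TMM scale, was found for 63.7% of all tested miRNAs. The limma differences of older minus younger kidneys were 1.05 (standard error 0.69) for miR-30f, -0.16 (0.66) for miR-30c, -1.42 (1.05) for miR-30a-5p and -1.91 (1.09) for miR-30b-5p, with adjusted p from 0.407 to 0.989. Of all 124 miRNAs, 0% were called in this comparison and 19 had an unadjusted p below 0.05. The kidney change did not differ from the mean change of the other 9 organs at the threshold for any member, with adjusted p from 0.816 to 0.964, where 0% of all miRNAs were called.

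**Figure D4:**
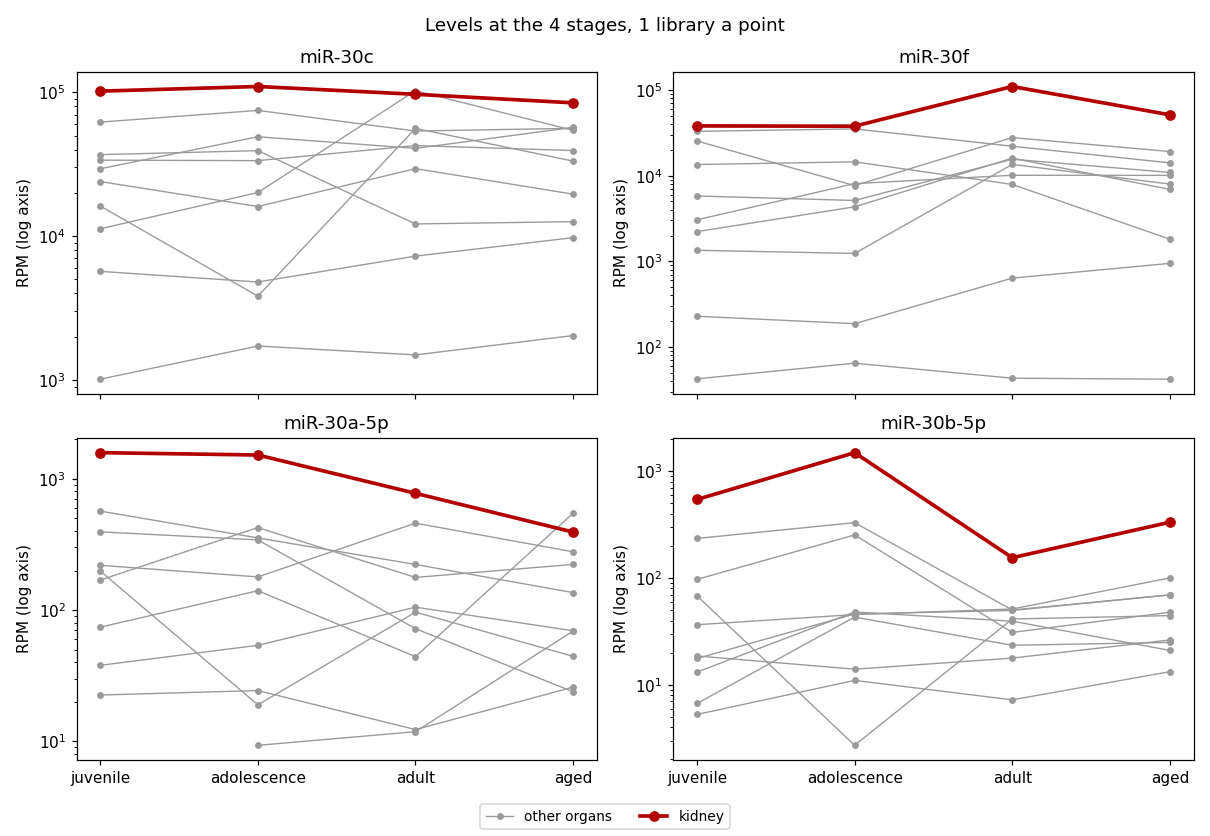
RPM (log axis) of 4 members at the 4 stages, each line an organ and each point 1 library, with kidney in red. In kidney miR-30c stays between 84402 and 109632 RPM, miR-30f is highest in the adult at 110051 RPM, and miR-30a-5p lies between 392 and 1578 RPM.

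Across organs, miR-30f differed between stages in both directions. On the TMM scale its older libraries lay above the younger in 4 organs (adrenal, antler, kidney and testes), below them in 2 (liver and spleen) and across them in 4, where over all miRNAs and organs 16.3% were above and 25.4% below. These shares differed by organ. Separation in either direction held for 58.1% of all miRNAs in adrenal, 54.8% in antler, 63.7% in kidney and 59.7% in testes. In liver it held for 39.5% and in spleen for 24.2%. In liver miR-30f was at 35203 RPM in adolescence and 14113 RPM in aged deer, and in spleen at 14505 and 1813 RPM. In heart RPM was 1345 and 1235 in the younger and 13542 and 7982 in the older libraries, but on the TMM scale these overlapped, with log2 values of 11.59 and 13.00 against 13.57 and 12.94. Of the 40 organ and member contrasts of older with younger, 0 were called, where 0.323% of all miRNAs were, and 8 had an unadjusted p below 0.05. The smallest adjusted p was 0.0660, shared by miR-30f (2.43) and miR-30a-5p (3.54) in antler. The difference of miR-30a-5p rests on 0, 2, 8 and 50 reads in the juvenile, adolescence, adult and aged antler libraries. For miR-30f in antler the call was made when brain was left out (2.62, limma adjusted p 0.00370) or spleen (2.62, limma adjusted p 0.00772). The interaction of organ and maturity was not called for any of the 4 members, with limma adjusted p of 0.211 for miR-30f and 0.335 for miR-30a-5p at unadjusted values of 0.00680 and 0.0189, and 0% of all miRNAs were called there.

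Ratios within libraries need no scaling, and their counts were not those of the TMM scale. On that scale the older libraries lay above the younger in 2 organs and below in 3 for both miR-30a-5p and miR-30b-5p. Per read of miR-30c, the older libraries lay above the younger in 5 organs and below in 2 for miR-30f, above in 2 and below in 6 for miR-30a-5p, and above in 2 and below in 5 for miR-30b-5p. By this ratio miR-30f of heart was also above and that of skeletal muscle below, and spleen overlapped. Over all other tested miRNAs and organs, 18.4% lay above and 29.8% below. In adrenal, heart, kidney and testes, miR-30f was higher and both miR-30a-5p and miR-30b-5p lower per miR-30c read in the older libraries. Liver had all 3 turned round, with older below younger for miR-30f and above for miR-30a-5p and miR-30b-5p. The 3 ratios share the reads of miR-30c and are not separate observations, and no share of all miRNAs was taken for the joint pattern. In heart, RPM of miR-30a-5p was higher in the older libraries (105 and 69.6 against 38.0 and 53.9). There miR-30c was at 102527 and 54343 RPM against 11246 and 20102. No minimum of reads was set for these ratios. Antler, counted as below for miR-30b-5p, had 4 and 3 reads in its younger libraries, and their exact intervals overlap those of the older. The older testes libraries had 7 and 1 reads of miR-30a-5p and 3 and 2 of miR-30b-5p.

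Each organ has 3 steps between adjacent stages, and a step was classed as up at a ratio of at least 2 and as down at 0.5 or less, given 10 reads in both libraries. Of 30 steps of miR-30c, 26 were maintained, 2 were up (brain and heart, adolescence to adult) and 2 were down (brain, juvenile to adolescence, and spleen, adolescence to adult). Of 30 steps of miR-30f, 19 were maintained, 7 were up and 4 were down, and 6 of the 7 steps up were from adolescence to adult. All 6 compare the same adolescence deer with the same adult deer, and the share of all miRNAs up at this step was not taken. For miR-30a-5p 16 of 23 steps were maintained, with 4 up and 3 down, and for miR-30b-5p 15 of 23, with 6 up and 2 down. The largest step of miR-30a-5p was up in spleen, from 44.2 RPM (40 reads) in adult to 546 RPM (228 reads) in aged deer, a ratio of 12.4. Over all known miRNAs, 17.9% of steps were up and 15.6% down. On TMM-scaled values miR-30c had 5 steps up, 22 maintained and 3 down, and its heart step from adolescence to adult was no longer up, with log2 values of 17.02 and 16.49. For miR-30f the counts on that scale were again 7, 19 and 4, but partly of other steps. From adolescence to adult, adrenal (log2 values 11.66 and 12.30), brain (12.71 and 13.05) and heart (13.00 and 13.57) were no longer up. From juvenile to adolescence, brain (11.32 and 12.71), heart (11.59 and 13.00) and skeletal muscle (9.57 and 10.93) were now up. Testes was up from adolescence to adult (10.73 and 12.39) in place of juvenile to adolescence. The counts were 4 up and 5 down for miR-30a-5p, and 6 up and 3 down for miR-30b-5p. These classes compare single libraries and have no test.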

How the data were processed

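Small RNA of 10 organs at 4 stages was sequenced by the authors in 40 libraries, with a kit that the labels and the methods name differently (NEBNext and TruSeq). Per the study's methods, reads were trimmed of adapters, filtered for length and for other RNA classes, and compared with miRBase, and miRDeep predicted further miRNAs. They deposited RPM for each listed miRNA, under a header that says tpm, and miRNAs without a read are not listed. Reads shared by similar names and ligation preferences of adapters were not corrected for here. Whole reads were recovered from the RPM values, all 7982 of which are multiples of the value of a single read to within 0.01 read.

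Groups followed the labels, and the number in a title is its stage. Because the animals are shared within a stage, this number pairs libraries across organs and entered the organ model as a block. The 124 known miRNAs that reached 10 reads in 4 or more libraries were TMM-scaled (edgeR 4.0.16) and fitted as log2(RPM + 1) in limma 3.58.1 under R 4.3.3, with organ and stage as terms, or with 20 groups of organ and maturity. Benjamini-Hochberg adjustment ran over all 124. A simulation of the kidney comparison with 121 miRNAs recovered 27 of 30 changed ones in the right direction and called 0 others. It had changes in kidney alone, all beyond the call threshold, and the same spread for every miRNA. It therefore checks the working of the fit and gives no error rate for the real libraries. DESeq2 1.42.0, edgeR and other scalings served as alternatives. Intervals are exact, at 95%, and cover counting error only. Members and lists were chosen with earlier results of these data known. All members are named. Other miRNAs are named only as the 2 most similar to a member, the 3 of the kidney list with the largest difference, the markers that check the organ labels, miR-215, named after its value was seen, and miR-1.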

Additional observations from a re-analysis of the deposited data

Results flagged for a closer look

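The level of miR-30f in skeletal muscle was 64.6 RPM in the adolescence library, far from the 42.0 to 43.1 RPM of the other 3, a gap of 0.951 of the range of the 4. In brain, the ratio of miR-30f to miR-30c was 1.13 in the adolescence library and 0.137 to 0.286 in the other 3, a gap of 0.851 of the range. In that brain library miR-30f had 1594 reads and miR-30c 1409, and miR-30a-5p and miR-30b-5p had 7 and 1. The test compares the gap of the outermost library with the critical value 0.829, and of 50 groups of 4 libraries examined, 2 passed it, about the share of 1 in 20 that chance gives.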

How the results depend on the processing

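All 4 members stayed called between organs (3 of 3 names with miR-30c and miR-30f summed), and 0 were called between stages, between maturity classes over all organs, in the kidney change against the other organs or in the interaction of organ and maturity, under every alternative run. The number of organ contrasts called higher was 6 and lower 4. On total reads the lower calls were 7 and in kidney all 4 members were called higher in place of 2, as they were with DESeq2, and with miR-30c and miR-30f summed the lower calls were 2, with fewer names tested. Leaving out a stage gave 3 to 6 higher calls and 4 lower, with 3 when the juvenile libraries were left out, and leaving out a kidney library or a stage gave 1 to 3 members called in kidney, with 1 when the juvenile or the adolescence kidney was left out. Calls of maturity within organs were 0, were 3 on total reads, and ran from 0 to 1 when an organ or stage was left out, with 1 without brain or spleen. Among the calls, reversals on total reads were those of miR-30a-5p (-2.59) and miR-30b-5p (-2.45) in muscle. In muscle miR-30c, not called after TMM, also depended on the scaling, at place 3 of the 10 organs by mean log2 value and place 10 by mean RPM. Not called and of changing sign were maturity over all organs for miR-30a-5p (-0.74 to 0.0395 over the organs left out, lowest without antler and highest without testes) and for miR-30b-5p (-0.53 to 0.0173 over the stages left out, lowest without the juvenile and highest without the adolescence libraries), and maturity in kidney for miR-30c with no minimum of reads (0.77) or without miR-1 (0.19). With miR-30c and miR-30f summed they led all libraries (100%), against 92.5% for miR-30c. The cause of these shifts was not tested beyond the fewer names and libraries. Leaving out the replicate block of stage changed no call between organs (4 members, 6 higher, 4 lower, 2 in kidney). The omissions of single stages for stage results and of kidney libraries were chosen after the data were seen. Depth limits miR-30d and miR-30e-5p, with at most 10 reads in a library, and the testes, with 41866 reads in the smallest library.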
